A study of Mus musculus with 5 samples.

Results

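The nuclear genes of the respiratory chain were examined for Pou4f1 CUT&Tag signal at their promoters in mouse retina at E16.5. They were taken from GENCODE M21 as the protein-coding genes of the nuclear chromosomes whose symbols begin with Nduf (complex I), Uqcr (complex III), Cox4 to Cox8 (complex IV) or Atp5 (complex V), together with Sdha, Sdhb, Sdhc and Sdhd (complex II). The rule gave 94 gene entries with 93 symbols among 21938 coding genes, Atp5o being annotated as 2 entries. A region was assigned to a gene when its midpoint lay within 1 kb of a transcript start. Of the 8038 regions in the table, 4948 lay at the start of a coding gene, and 36 of these lay at the start of a respiratory chain gene, 1 region for each of 36 genes.

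The libraries were made from whole retinas of wildtype embryos, and 4 retinas were pooled before dissociation. Whether each library had a pool of its own is not stated. A rabbit anti-Pou4f1 antibody was used for 2 libraries and rabbit IgG, the negative control, for 2, while the single H3K9AC library was not analysed here. CUT&Tag (Cleavage Under Targets and Tagmentation) sends a transposase to the chromatin that an antibody has bound, so that the tagged fragments mark where the protein sat. Pou4f1 is a POU domain transcription factor of retinal ganglion cells, the output neurons of the retina, but no cells were sorted, so a smaller number of bound cells and a lower signal in each cell cannot be told apart. The table holds 1 signal value for each region and library. It is not a read count, and library depth is unknown. One control column is named IgG. The other is named negative control and was counted as the second IgG library, since rabbit IgG is the sole negative control of the study. The regions were called by the authors on Pou4f1 with IgG as control, so part of any excess over IgG comes from that choice. To describe the tissue, a region lay at a start in 10 of 12 retina and ganglion cell loci (among them Pax6, Atoh7, Isl1, Pou4f2 and Pou4f1 itself) and in 0 of 10 loci of liver, muscle, blood, endothelium, pancreas and skin (95% exact interval 0 to 30.8%), against 24.9% of all coding genes. Several of the retina loci were known to be bound in these data when the list was made, so these counts are no independent test of the label.

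The respiratory chain sits in the inner mitochondrial membrane. Complex I takes electrons from NADH and complex II takes them from succinate. Complexes III and IV pass these electrons on to oxygen, and complex V, the ATP synthase, makes ATP from the proton gradient that complexes I, III and IV build. The core of the chain is encoded partly in mitochondrial DNA, which was not examined, and the remaining subunits are nuclear genes with promoters scattered over the genome. NRF1, GABP (an ETS factor), YY1 and the oestrogen-related receptors (ERR) are textbook regulators of such promoters, and ganglion cells are known for their need for mitochondrial ATP along unmyelinated axons.

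A region was present at the start of 36 of the 94 genes, a share of 38.3% (95% exact interval 28.5 to 48.9%), against 24.9% of all coding genes (5470 of 21938). Coding genes include genes that are silent in retina, and expression was not measured here, so the difference was not tested and is given as a description. By complex, the shares were 39.1% for complex I (18 of 46), 25% for complex II (1 of 4), 37.5% for complex III (3 of 8), 33.3% for complex IV (6 of 18) and 44.4% for complex V (8 of 18). The exact intervals of the 5 complexes overlapped one another. Those of complexes II to V contained the share of all coding genes, and that of complex I began at 25.1%.

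**Figure D1:**
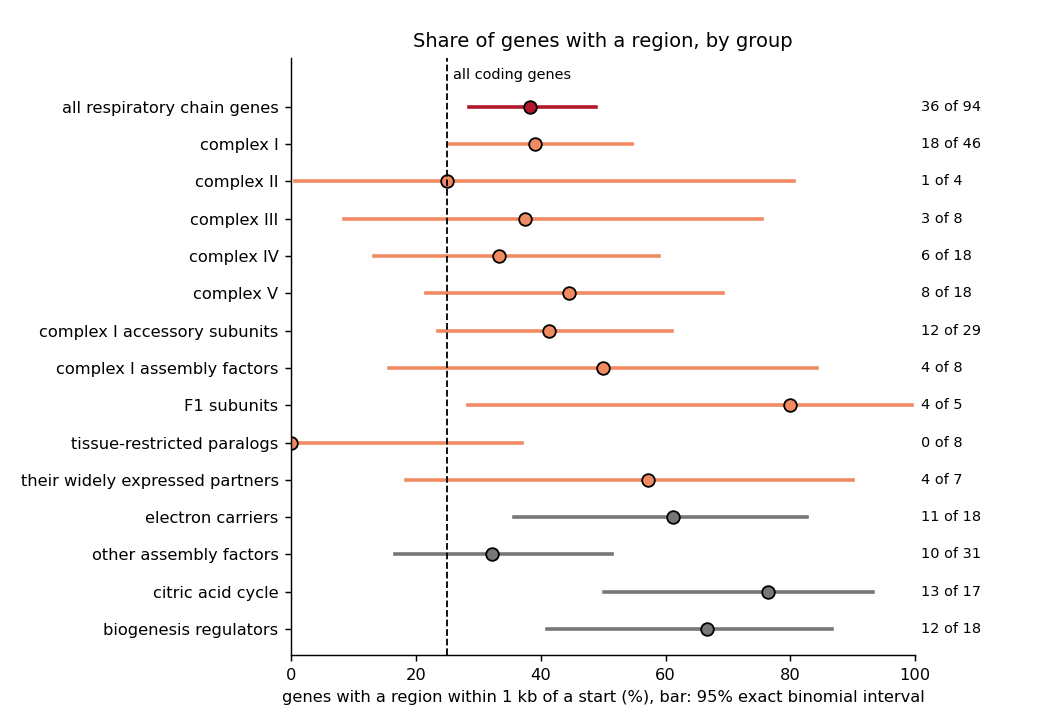
Share of genes with a region within 1 kb of a transcript start (horizontal axis, percent), with the counts at the right and 95% exact binomial intervals as bars. Red and orange mark respiratory chain genes, grey marks other mitochondrial lists and the dashed line marks all coding genes at 24.9%. The list labelled citric acid cycle includes genes of pyruvate dehydrogenase. The F1 subunits of the ATP synthase stand at 4 of 5, and the tissue-restricted paralogs at 0 of 8.

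Within complex I, a region lay at Ndufv2, a core subunit of the arm that transfers electrons, and none lay at the core subunit genes Ndufs1, Ndufs7, Ndufs8 and Ndufv1. Accessory subunits, which surround the core and take no part in electron transfer, had a region at 12 of 29 genes. Of the assembly factors, which help to build complex I but do not stay in it, 4 of 8 had one (Ndufaf2, Ndufaf3, Ndufaf4 and Ndufaf8).

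Complex II had a region at Sdhd, one of its membrane anchors, and none at Sdha, Sdhb or Sdhc, which encode the flavoprotein, the iron-sulphur protein and the other anchor. In complex III, the small subunits Uqcr10, Uqcrh and Uqcrq had a region. The Rieske iron-sulphur protein gene Uqcrfs1 and the genes of the core proteins, Uqcrc1 and Uqcrc2, had none, and neither did Uqcrb and Uqcr11.

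In complex IV, Cox4i1, Cox5a, Cox7a2, Cox7a2l, Cox7c and Cox8a had a region, and Cox5b, Cox6a1, Cox6b1, Cox6c and Cox7b had none. Several complex IV subunits exist as a widely expressed form and a form limited to tissues such as muscle, lung or testis. Of the widely expressed forms, 4 of 7 had a region (Cox4i1, Cox7a2, Cox8a and Ndufa4, which is now counted as a complex IV subunit in spite of its name). Of the tissue-restricted forms, 0 of 8 had one (Cox4i2, Cox6a2, Cox6b2, Cox7a1, Cox7b2, Cox8b, Cox8c and Ndufa4l2), which allows up to 37.5%. None of these 8 had a CpG-rich promoter or a divergent partner, as defined below. Of all coding genes with neither, 12.1% had a region. The widely expressed forms were of mixed promoter class, and the part of this in the contrast was not tested.

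In the ATP synthase, the genes of the rotary F1 head were covered at 4 of 5. These were Atp5b (the catalytic beta subunit), Atp5c1 (gamma, the central shaft), Atp5d and Atp5e (delta and epsilon at its foot), while Atp5a1 (alpha) had none. Atp5d was counted through an internal transcript start. Of the 3 genes that encode the identical c subunit of the membrane ring, Atp5g2 had a region and Atp5g1 and Atp5g3 had none. The genes Atp5f1, Atp5j and Atp5s also had a region, and Atp5h, Atp5j2, Atp5k, Atp5l, Atp5mpl and both entries of Atp5o had none.

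Other genes without a region were Ndufa1, Ndufa3, Ndufa6, Ndufa7, Ndufa9, Ndufa10 and Ndufa12, Ndufb3, Ndufb6, Ndufb8, Ndufb9 and Ndufb10, Ndufc1 and Ndufc2, Ndufs4, Ndufs5 and Ndufs6, and the assembly factors Ndufaf1, Ndufaf5, Ndufaf6 and Ndufaf7. For the 58 gene entries without a region at a start, the nearest midpoint lay at a median of 64.5 kb, and only 2 had one within 3 kb. Just inside the 1 kb limit was Uqcrh at 965.5 bp. Just outside were Ndufb10 at 2271.5 bp and Ndufa4l2 at 2405 bp, so the limit separated the genes widely. The region assigned to Uqcrh was 2446 bp long, the longest of the 36, and was centred over the neighbouring gene Lrrc41. At Atp5d, Atp5g2 and Cox7a2l the region sat at an internal transcript start, 3531, 1628 and 2974.5 bp from the outermost annotated 5′ end of the gene. These were the genes with that end over 1 kb from the midpoint. Regions at Atp5f1, Atp5j and Ndufa5 also sat at an internal start and did not reach the outermost 5′ end. The promoter windows used below were placed at the outermost 5′ end.

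The regions were centred close to the starts. All 36 covered the nearest transcript start of the gene, which need not be its outermost 5′ end. The midpoint lay at a median of 71.75 bp from that start, against 97.5 bp for all regions at coding starts. Of the 36 midpoints, 25 (69.4%) lay within 100 bp, against 51.0%. Their median length was 951 bp, against 1023 bp. Their median GC content was 59.9%, against 62.9%, and their median ratio of observed to expected CpG was 0.756, against 0.776.

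Many of these starts were shared. A coding gene on the opposite strand that starts within 1 kb, a divergent partner, was annotated for 35 of the 94 genes (37.2%), against 10.9% of all coding genes. Among the 36 genes with a region it was annotated for 20 (55.6%), against 21.9% of all coding genes with a region. Atp5j was paired with Gabpa, which encodes the DNA-binding subunit of GABP. Sdhd was paired with Timm8b, a chaperone of mitochondrial import, Ndufb5 with the mitochondrial ribosome gene Mrpl47. The start of Atp5c1 faced Kin and that of Ndufa4 faced Phf14. A signal over such a start cannot be told apart between the 2 genes.

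Split by partner, the share with a region was 57.1% for respiratory chain genes with a divergent partner (20 of 35), beside 50.4% for all coding genes with one (1200 of 2382). Without a partner the shares were 27.1% (16 of 59) and 21.8% (4270 of 19556). In a split chosen after seeing the data, promoters were also divided by CpG content, CpG-rich meaning a GC content of at least 55% and an observed to expected CpG ratio of at least 0.65 from 250 bases before to 50 after the start. CpG-rich promoters had a region at 48.8% of the respiratory chain genes (21 of 43) and 47.1% of all coding genes (3509 of 7448), and other promoters at 29.4% (15 of 51) and 13.5% (1961 of 14490). CpG-rich promoters made up 45.7% of the respiratory chain genes and 34.0% of all coding genes. The part of promoter class in the share was not tested beyond this split.

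**Figure D2:**
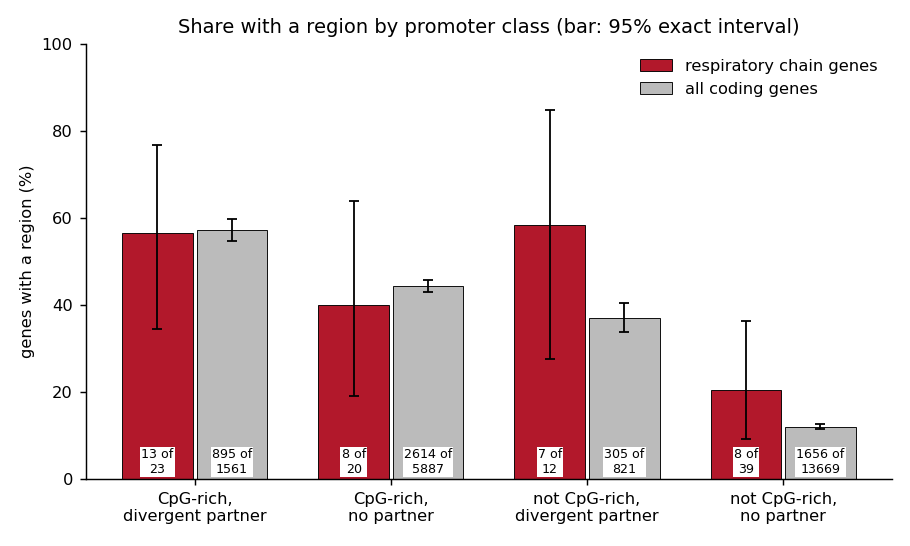
Share of genes with a region (vertical axis, percent) by promoter class, for respiratory chain genes (red) and all coding genes (grey), with counts in the bars and 95% exact binomial intervals. For CpG-rich promoters the pairs of bars stand close together, at 56.5% and 57.3% with a divergent partner and at 40% and 44.4% without one. For the other promoters they stand at 58.3% and 37.1% with a partner and at 20.5% and 12.1% without one.

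The sequences under the regions were searched on both strands for the recognition letters of Pou4f1 and of the factors known from respiratory chain promoters. None of the spelled motifs contains another. The POU motif ATNAATNAT was found in 0 of the 36 regions over their whole length, which allows a share of up to 8.33%. It was found in 6.27% of all regions at coding starts and in 46.5% of the 3080 other regions on chromosomes. It was also found in 0 of the 94 promoters (250 bases before to 50 after the start), with a 95% exact interval of 0 to 3.85% that holds the 3.46% of all coding promoters. A longer form of the POU motif contains these letters, so its count of 0 in the same windows follows from this and adds nothing. The absence of these letters says nothing more about the factor.

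The NRF1 motif CGCATGCG, which reads the same on both strands, lay in 6 of the 36 regions (16.7%, 95% exact interval 6.37 to 32.8%), against 6.65% of regions at coding starts. It lay in 7 of the 94 promoters (7.45%), against 2.61% of all coding promoters. The gap varied with the window. In the central 200 bp the motif lay in 2 of the 36 regions (5.56%), against 1.96% of regions at coding starts. In the central 500 bp the shares were 5.56% and 4.49%, and in promoters of genes with a region 5.56% and 4.50%. Promoters of respiratory chain genes without a region held the motif in 5 of 58 (8.62%). Other spellings of the NRF1 site are not in these counts. The shorter spelling TGCGCA lay in 36.1% of the 36 whole regions and 32.2% of regions at coding starts. In the central 200 bp it lay in 13.9% and 9.88%. The 6 sites of CGCATGCG are shown with their neighbouring bases, and capitals mark the motif. They were chosen because they carry the binding letters of the factor after which this gene set is often described. Coordinates are those of mm10, each window is 30 bases long, and the sequence was read from GRCm38.p6. The sites lay in an untranslated exon of Atp5g2 (chr15:102671070-102671099, plus strand), Atp5j (chr16:84835105-84835134, plus strand) and Ndufa8 (chr2:36049329-36049358, plus strand), in an intron of Vmac beside Ndufa11 (chr17:56717692-56717721, plus strand), in an untranslated exon of Tssk6 beside Ndufa13 (chr8:69903321-69903350, plus strand), and between coding genes upstream of Ndufaf4 (chr4:24897960-24897989, plus strand).
Atp5g2: ggaaggctctgCGCATGCGcggccggagcc
Atp5j: actgcactgtaCGCATGCGtattctggcct
Ndufa8: ggtaccatctgCGCATGCGtctccagcgac
Ndufa11: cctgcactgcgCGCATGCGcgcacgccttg
Ndufa13: ttgctggagagCGCATGCGcatcctcgatt
Ndufaf4: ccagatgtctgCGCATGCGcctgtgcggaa

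The ERR motif TCAAGGTCA lay in 5 of the 36 regions (13.9%, 95% exact interval 4.67 to 29.5%), against 1.48% of regions at coding starts. In the central 200 bp of the regions it was found in 0 of 36. It was found in 2 of the 94 promoters (2.13%), against 0.474% of all coding promoters. The 5 genes were Atp5b, Ndufb4, Ndufv2, Sdhd and Ndufa2, and 4 of the sites are shown because this motif gave the widest ratio between the respiratory chain regions and all regions at coding starts. They lay in an intron of Atp5b (chr10:128083485-128083514, minus strand), between coding genes upstream of Ndufb4 (chr16:37654738-37654767, plus strand), in an intron of Ndufv2 (chr17:66101169-66101198, minus strand) and over the start of Sdhd (chr9:50603795-50603824, plus strand).
Atp5b: aggcccaagcTCAAGGTCAcggggagaaga
Ndufb4: ttgtcattagTCAAGGTCAttagtgtctcc
Ndufv2: cctaacttagTCAAGGTCAggaaggcgatt
Sdhd: tttcgagggcTCAAGGTCActctacaaccc

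The YY1 motif AANATGGC lay in 14 of the 36 regions (38.9%, 95% exact interval 23.1 to 56.5%), against 19.1% of regions at coding starts, and in 17 of the 94 promoters (18.1%), against 6.16% of all coding promoters. Its letters hold an ATG, and 5 of the 17 sites in the regions overlapped an annotated start codon. In the central 200 bp it lay in 3 of 36 regions (8.33%), against 4.79%. Promoters of respiratory chain genes held it in 16.7% of those with a region and 18.97% of those without. Of the sites shown, those of Atp5b (chr10:128083313-128083342, minus strand) and Ndufv2 (chr17:66101450-66101479, plus strand) overlapped the start codon of the gene, and that of Atp5f1 (chr3:105959248-105959277, plus strand) lay in its untranslated first exon.
Atp5b: ccacaagactcAACATGGCggaatccgggt
Ndufv2: gcgccaaggagAACATGGCggggtacgcga
Atp5f1: ggggcaggagcAAGATGGCcgctcgcacat

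The ETS motif CCGGAAG lay in 10 of the 36 regions (27.8%) and in 28.3% of regions at coding starts. In promoters it was found in 18 of 94 genes (19.1%), against 10.8% of all coding genes. The general promoter letters GGGCGG (Sp/KLF) and CCAAT lay in 83.3% and 63.9% of the regions, against 91.3% and 67.7%. The E-box CACGTG lay in 13.9%, against 23.7%, and the CREB motif TGACGTCA in 8.33%, against 5.38%. A motif match is a description of the letters, and binding of these other factors was not measured.

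**Figure D3:**
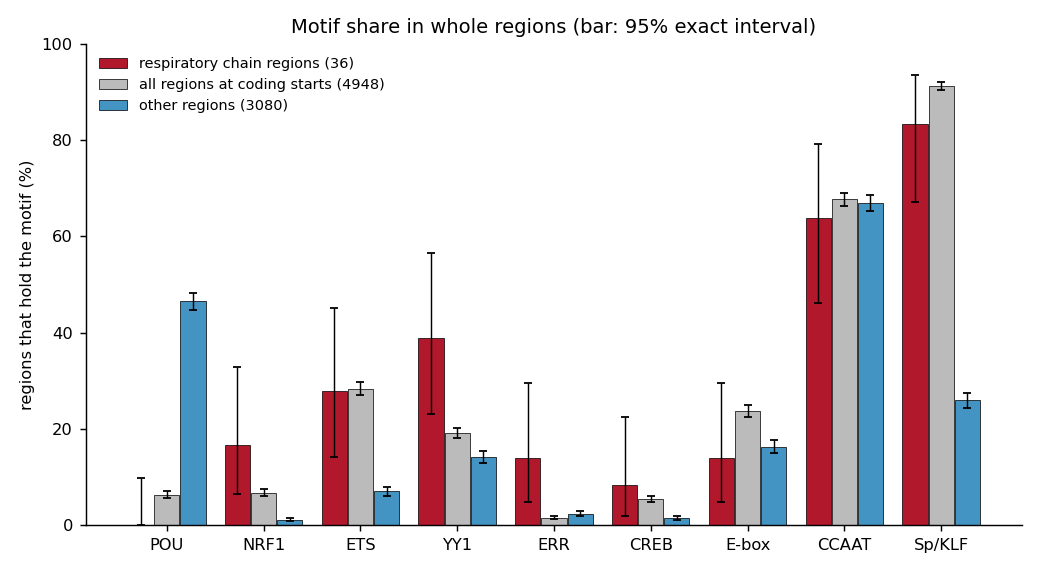
Share of regions that hold each motif over their whole length (vertical axis, percent) in the 36 respiratory chain regions (red), all 4948 regions at coding starts (grey) and the 3080 other regions on chromosomes (blue), with 95% exact binomial intervals. The POU bar stands at 0 in the respiratory chain regions and at 46.5% in the regions away from coding starts, and the ERR bar stands at 13.9% against 1.48%.

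The stretches just upstream of 3 of the starts are shown, since they are the promoters of the complex I subunit with the highest Pou4f1 signal, of an assembly factor with an NRF1 site, and of the complex II subunit. They are written in the direction of transcription and hold no exon. Capitals mark CCAAT in Ndufb4, NRF1 (as CGCATGCG only) in Ndufaf4, ETS in Sdhd, and Sp/KLF letters in each, on either strand. The shorter NRF1 spelling TGCGCA was not marked. It lies in lower case in the Ndufb4 stretch, so the lack of capitals there does not show that NRF1 letters are absent. The positions are chr16:37654454-37654603 (minus strand) for Ndufb4, chr4:24897933-24898082 (plus strand) for Ndufaf4 and chr9:50603813-50603909 (minus strand) for Sdhd.
Ndufb4: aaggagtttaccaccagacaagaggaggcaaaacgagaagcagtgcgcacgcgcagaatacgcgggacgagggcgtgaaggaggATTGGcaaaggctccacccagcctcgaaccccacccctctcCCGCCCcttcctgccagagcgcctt
Ndufaf4: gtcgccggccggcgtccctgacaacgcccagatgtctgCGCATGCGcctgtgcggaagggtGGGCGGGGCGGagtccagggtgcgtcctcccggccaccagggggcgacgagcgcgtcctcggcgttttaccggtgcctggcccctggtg
Sdhd: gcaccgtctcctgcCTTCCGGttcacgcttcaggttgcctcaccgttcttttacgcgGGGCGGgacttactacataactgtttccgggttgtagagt

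The Pou4f1 signal of the 36 regions had a median of 176 in replicate 1 (range 98.6 to 334) and 142 in replicate 2 (19.6 to 348). For all regions at coding starts the medians were 183 and 130. In the library named IgG the median was 7.54 (0 to 38.3) and in that named negative control 12.9 (0 to 49.4). Both Pou4f1 libraries lay above both control libraries in all 36 regions. The same held for 99.1% of regions at coding starts and 96.5% of all regions in the table, so this count does not set the genes apart. Ranked by their mean Pou4f1 signal among the regions at coding starts, the 36 ran from percentile 1.43 (Uqcr10) to percentile 90.9 (Ndufb4), with 21 above the median.

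**Figure D4:**
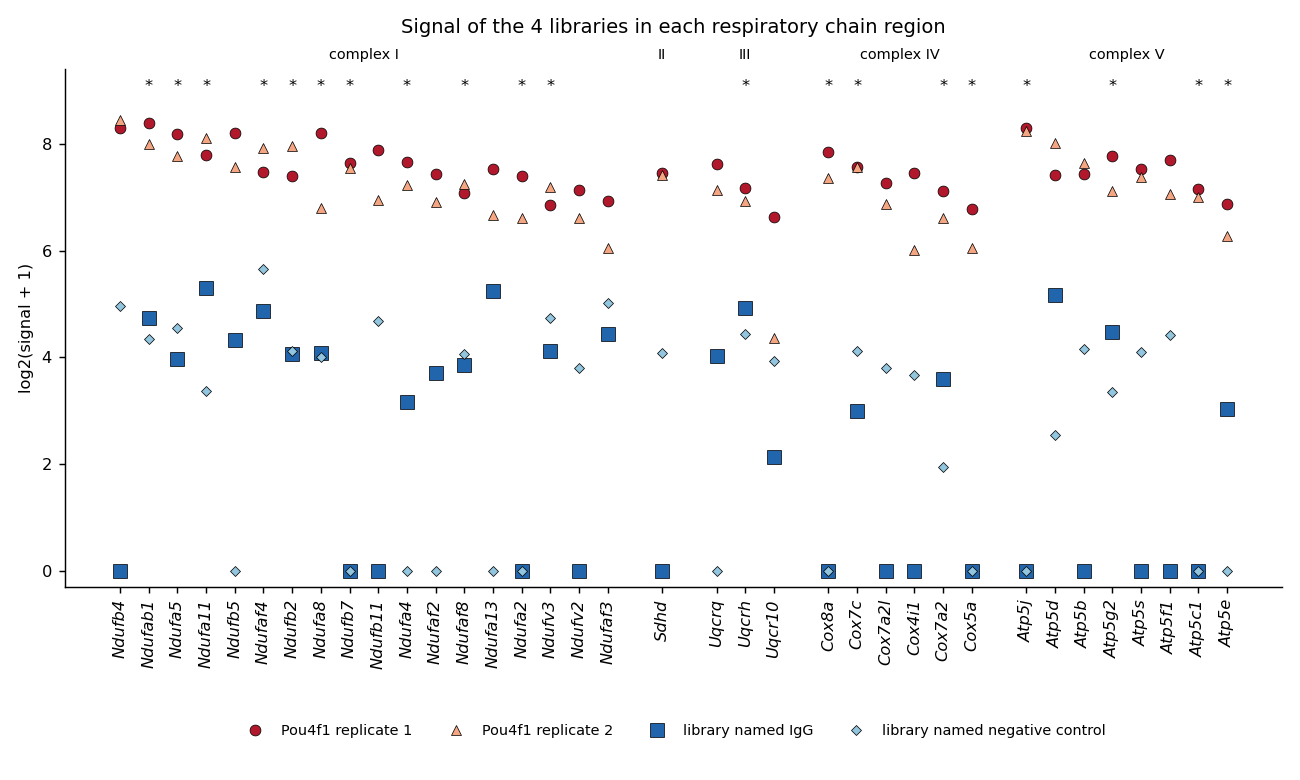
Signal of each library in the 36 regions as log2(signal + 1) (vertical axis), grouped by complex and ordered by mean Pou4f1 signal. Circles and triangles mark Pou4f1 replicates 1 and 2, squares and diamonds mark the libraries named IgG and negative control (a diamond inside a square at 0 marks both at 0), and asterisks mark the 20 regions with an adjusted p under 0.05. The Pou4f1 symbols lie above the control symbols in every region, most narrowly in Uqcr10.

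The test between the Pou4f1 and IgG libraries was made in limma after a log2(signal + 1) transformation, and p-values were adjusted by Benjamini-Hochberg over all 8038 regions. Of the 36 regions, 20 (55.6%) were higher in Pou4f1 at an adjusted p under 0.05 and 0 were lower, beside 64.8% of all regions higher. Among regions at coding starts, 62.0% were higher. The share of the respiratory chain regions thus lay near or below the background. Their median log2 difference was 5.01, against 4.91 at all coding starts and 5.22 in the whole table. By complex, the regions called higher were 11 of 18 in complex I, 0 of 1 in complex II, 1 of 3 in complex III, 4 of 6 in complex IV and 4 of 8 in complex V.

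Whether a region was called followed the zeros of the control libraries. Where both were at 0, so that the controls added no spread, 6 of 6 regions were called, and where neither was, 12 of 15 were, but where 1 of them was at 0 only 2 of 15 were called. The last group had log2 differences of 4.48 to 5.89 with standard errors of 1.27 to 2.13. The group with signal in both had lower differences (1.76 to 4.10) with standard errors of 0.389 to 1.21. The same order held at all coding starts, with 906 of 909, 1433 of 1823 and 728 of 2216 regions called. In a region of median length, the commonest value above 0 corresponds to a signal of 12.3 for the library named IgG and 14.3 for the other control, the size of many of the single values that stood beside a 0. The size of the differences changed with single libraries. The median log2 difference of the 36 was 4.66 without Pou4f1 replicate 1 and 5.35 without replicate 2, against 5.06 and 5.38 for all regions. Without the library named IgG it was 3.54, against 4.61, and without that named negative control 3.82, against 5.42. In these fits the lone library was assumed to vary like the other group.

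In the values that follow, those of Pou4f1 replicates 1 and 2 come first and those of the libraries named IgG and negative control second, and log2 differences are given ± SE with n = 2 in each group. In complex I, Ndufb4, an accessory subunit of the membrane arm, had the highest mean signal of all 36 regions. Its region (chr16:37653817-37654763) had a signal of 314 and 348 with anti-Pou4f1 and of 0 and 30.04 with IgG. The groups lay far apart, but the spread between the controls left a log2 difference of 5.89 ± 1.99 with an adjusted p of 0.0695. Ndufab1, the mitochondrial acyl carrier protein, followed with 334 and 255 against 25.6 and 19.2 (chr7:122101557-122102223). There the controls were close to each other, and the log2 difference of 3.66 ± 0.43 was called (adjusted p = 0.00931). The lowest mean signal in complex I was that of Ndufaf3, with 121 and 65.0 against 20.8 and 31.2. Its log2 difference of 1.76 ± 0.56 was the smallest of the 36 (adjusted p = 0.0623).

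Ndufv2, an iron-sulphur protein of the NADH-oxidizing module and a core subunit, had a signal of 139 and 96.1 against 0 and 12.9 (adjusted p = 0.0615). Ndufv3, an accessory protein of the same module, had 115 and 145 against 16.3 and 25.6, a log2 difference of 2.60 ± 0.46 (adjusted p = 0.0227). Both Pou4f1 libraries were above both controls in each gene, and Ndufv3 alone passed the test although its difference was the smaller one.

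Ndufa2 and Ndufb7 were at 0 in both controls. Ndufa2 had a signal of 168 and 97.2 with anti-Pou4f1 (adjusted p = 0.0028), and Ndufb7 had 198 and 185 (adjusted p = 0.00222). Both are accessory subunits, and no fold can be given against a control listed at 0. Ndufa5 had 291 and 218 against 14.6 and 22.4 (adjusted p = 0.0105). Ndufa4, the subunit assigned to complex IV, had 202 and 149 against 7.89 and 0 and was 1 of the 2 regions called with a single control at 0 (adjusted p = 0.0349).

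A further 4 accessory subunits of complex I had a control value at 0 or controls that differed widely. Ndufb5 had 295 and 189 against 18.9 and 0 (adjusted p = 0.0595), and Ndufb11 had 235 and 123 against 0 and 24.7 (adjusted p = 0.0847). Ndufa13, which shares its region with Tssk6 and Yjefn3, had 184 and 101 against 36.9 and 0 (adjusted p = 0.128), and none of these 3 passed. Ndufa11 had 221 and 276 against 38.3 and 9.31 and passed (3.62 ± 0.86, adjusted p = 0.0385).

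Among the assembly factors, Ndufaf4 had a signal of 177 and 242 against 28.1 and 49.4, the highest control signal of the 36 regions in the library named negative control. Its log2 difference was 2.44 ± 0.52 (adjusted p = 0.0319). Ndufaf8 had 134 and 152 against 13.5 and 15.7, a log2 difference of 3.21 ± 0.39 (adjusted p = 0.00976). Ndufaf2, whose start is shared with the DNA repair gene Ercc8, had 172 and 120 against 11.98 and 0 (adjusted p = 0.0527). Of the 4 factors, Ndufaf4 and Ndufaf8 thus passed the test.

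Sdhd of complex II had nearly equal Pou4f1 replicates, 174 and 171, against 0 and 15.8 (chr9:50603606-50604476). Its log2 difference of 5.40 ± 1.65 did not pass (adjusted p = 0.0589).

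In complex III, Uqcrq had the highest mean signal, with 195 and 139 against 15.3 and 0 (log2 difference 5.36 ± 1.64, adjusted p = 0.0592). Uqcrh, the hinge protein of the cytochrome c docking site, had 143 and 122 against 29.5 and 20.6 and was called (2.37 ± 0.43, adjusted p = 0.0235). Its control signal was among the highest. Uqcr10 had 98.6 and 19.6 against 3.35 and 14.2 (chr11:4703922-4704922). Its 2 Pou4f1 replicates differed more than those of any other of the 36 genes, the lower one stood 5.34 above the higher control, and the log2 difference of 2.48 ± 1.21 did not pass (adjusted p = 0.134).

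In complex IV, Cox8a had the highest mean signal, 229 and 164 with both controls at 0 (chr19:7217332-7217829, adjusted p = 0.00222). Its region was also the shortest of the 36, at 498 bp. Cox5a, a subunit on the matrix side, had the lowest mean, 109 and 64.9 with both controls at 0 (adjusted p = 0.00321). High and low Pou4f1 signal could thus both be called where the controls were empty. Cox7a2 had 137 and 97.2 against 11.1 and 2.83 (4.10 ± 0.78, adjusted p = 0.0257), and Cox7c had 188 and 188 against 7.003 and 16.3 (4.003 ± 0.58, adjusted p = 0.0144). Cox4i1, the widely expressed form of the largest nuclear subunit, had 175 and 63.2 against 0 and 11.7 (adjusted p = 0.0655). The supercomplex factor Cox7a2l had 153 and 116 against 0 and 12.9 (adjusted p = 0.0571).

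In complex V, Atp5j, a coupling factor of the peripheral stalk, had the highest mean signal, 315 and 302 with both controls at 0 (chr16:84834349-84835343). It also had the largest log2 difference of the 36 (8.27 ± 0.37, adjusted p = 0.00222), a size that depends on the pseudocount because the controls are at 0. The start is shared with Gabpa. Atp5c1 had 141 and 127, again with both controls at 0 (adjusted p = 0.00222). Atp5e had the lowest mean signal in the complex, 116 and 76.4 against 7.18 and 0 (adjusted p = 0.0427).

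The catalytic subunit gene Atp5b had 171 and 199 against 0 and 16.7 (5.46 ± 1.68, adjusted p = 0.0595). Atp5d had 169 and 259 against 34.7 and 4.81, controls that differed widely (3.87 ± 1.12, adjusted p = 0.0541). The groups did not overlap in either gene. Atp5g2, the c subunit gene with a region, had 219 and 137 against 21.1 and 9.24 (3.53 ± 0.63, adjusted p = 0.0229). Atp5s had 184 and 166 against 0 and 16.2 (adjusted p = 0.0595), and the stalk gene Atp5f1 had 206 and 132 against 0 and 20.5 (adjusted p = 0.0737). Of the 4 F1 genes with a region, Atp5c1 and Atp5e were therefore called.

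The direction of the difference was the same in all 36 regions on the deposited scale. With each library scaled to its column total, although the regions were selected by Pou4f1 signal, the median of all regions moved by -2.48 and the log2 difference of 13 of the 36 was below 0, while the median of the 36 relative to that of all regions went from -0.21 to -0.11.

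The Pou4f1 replicates were not of equal height. The ratio of replicate 2 to replicate 1 had a median of 0.744 in the 36 regions, against 0.698 at all coding starts and 0.810 in the whole table, and replicate 2 was the lower one in 27 of 36 (75.0%), against 84.2% at all coding starts. The smallest ratios were those of Uqcr10 (0.198), Cox4i1 (0.362) and Ndufa8 (0.377), the only 3 regions in which the replicates differed by more than 2-fold. In Ndufa8, which faces Morn5, the signal was 294 and 111 against 15.8 and 15.01 in the controls, and the region was called (adjusted p = 0.0265). The largest ratios were those of Atp5d (1.53), Ndufb2 (1.47) and Ndufaf4 (1.37), and Ndufb2 had 168 and 247 against 15.7 and 16.2 in the controls (adjusted p = 0.00964). With 1 library for each replicate, these ratios carry no test.

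**Figure D5:**
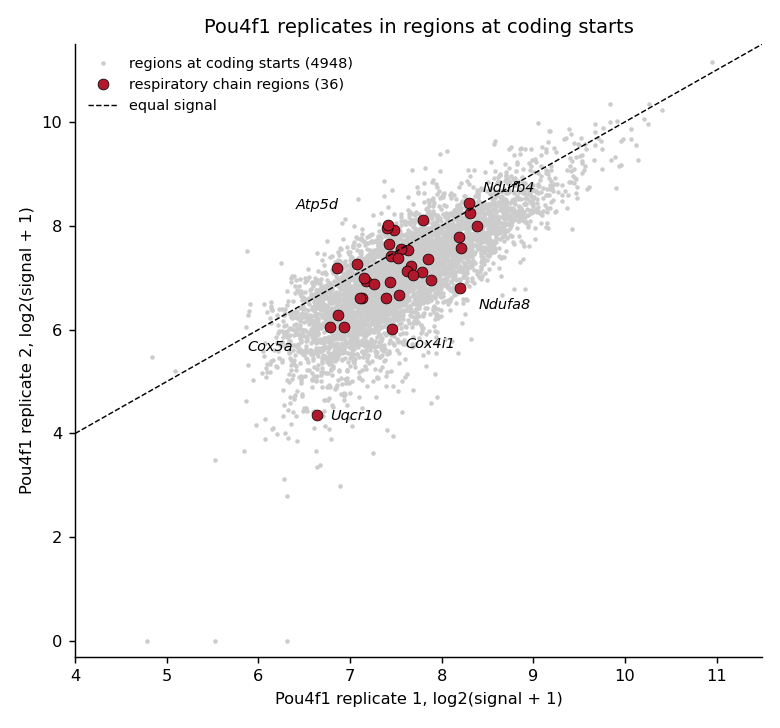
Pou4f1 replicate 1 (horizontal axis) against replicate 2 (vertical axis), both as log2(signal + 1), for all 4948 regions at coding starts (grey) and the 36 respiratory chain regions (red). The dashed line marks equal signal. The red points lie within the grey cloud, 27 of 36 below the line, with Uqcr10 lowest.

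Genes that work beside the complexes were counted from lists of symbols grouped by role. Of 18 genes for the mobile electron carriers, coenzyme Q synthesis and electron transfer flavoprotein, 11 had a region (61.1%, against 24.9% of all coding genes), and 7 of these 11 regions were higher in Pou4f1, near the 64.8% of all regions called. Etfa, a subunit of the electron transfer flavoprotein, had 585 and 569 against 0 and 16.9 (adjusted p = 0.0387), which is more than any of the 36 regions. Cycs, cytochrome c itself, had 410 and 260 against 23.5 and 0 (adjusted p = 0.0602), and Cyc1, the cytochrome that is part of complex III but falls outside the symbol rule, had 65.5 and 43.9 against 44.5 and 14.1 (adjusted p = 0.259). In Cyc1 the groups overlapped. Of 31 assembly factors of complexes I to V other than the Ndufaf genes, 10 had a region (32.3%, against 24.9% of all coding genes), and 8 of these 10 were higher in Pou4f1, against 64.8% of all regions. Tmem126b, a complex I assembly factor, had the highest signal among them, 500 and 395 against 11.8 and 18.1 (adjusted p = 0.00562).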

How the data were processed

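The members and all gene lists were chosen with earlier results of these data known. The authors trimmed and masked the reads, aligned them to mm10 with Bowtie2 2.4.5 (per the labels) and used SEACR (relaxed mode) to call regions. The deposited signal is 1 value per region and library. Its averaging and scaling, and any pooling of replicates for calling, are not stated in the sources used here. All 4 columns of values were used. The methods call the replicates independent without saying that they came from separate litters, so p-values measure the spread between these samples, which may be technical.

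Distances were measured from the midpoint of a region to transcript starts of GENCODE M21, and sequence was read from GRCm38.p6. Pou4f1 (n = 2) and IgG (n = 2) entered limma 3.58.1 (R 4.3.3) as log2(signal + 1) with no covariate and no scaling. The Benjamini-Hochberg adjustment covered every region, and an adjusted p under 0.05 was the threshold. The added 1 makes log2 differences too small where the signal is low. An exact permutation test of 2 against 2 libraries cannot go below p = 0.333. The fit was tested on simulated data. Shares have 95% Clopper-Pearson intervals for counting error alone, and a share of 0 is given with that interval or with the limit that 3 counts allow. Motifs were searched on both strands in the central 200 bp and in whole regions. Shares of lists were not tested against other genes.

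Named genes were the core, catalytic, c ring and paralogous subunits listed by role, the highest and lowest mean Pou4f1 signal in each complex, and the 3 largest and 3 smallest replicate ratios. Values are given for all 36 regions. Some genes of the lists are not reported here by name. Genes of other lists given with values were chosen after their values were seen. Alternatives were other distances and transcript sets, scalings of IgG, pseudocounts of 0.1 and 10, a summed signal of at least 50, a trend of spread on level, each library left out, and other motif windows. The tools were Python 3.11.15, numpy 2.4.6, pandas 2.3.3, scipy 1.17.1, matplotlib 3.10.9 and samtools 1.23.1.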

Additional observations from a re-analysis of the deposited data

How the results depend on the processing

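The share of respiratory chain genes with a region was between 35.1% and 40.4% under every planned distance, transcript set and gene set, and moved beyond its interval when only genes with (57.1%) or without (27.1%) a divergent partner were taken, a split chosen after seeing the data. Among all regions of the table, 64.8% were higher in Pou4f1, and this share changed widely with the processing. It was 36.7% and 26.8% with IgG taken as 2 and 4 times shallower, 22.7% with column totals and 92.6% with a pseudocount of 10. The 36 regions changed in the same direction under these settings. Their count of regions higher in Pou4f1 was 20 of 36. It fell to 11 and 6 with IgG taken as 2 and 4 times shallower and to 6 with column totals, and it was 35 with a pseudocount of 10 and 9 to 36 with 1 library left out. The 9 regions called without either Pou4f1 replicate were among the 20. The 6 regions called with column totals were Atp5j, Ndufa2, Cox8a, Atp5c1, Ndufb7 and Cox5a, where both controls are at 0, and these were called in all 11 refits. The median log2 difference of 5.01 became 4.05 with IgG 4 times shallower, 2.62 with column totals, 6.71 and 3.23 with pseudocounts of 0.1 and 10, and 3.54 to 5.35 with 1 library left out (3.82 without the library named negative control). With column totals the log2 difference turned to -0.039 at Atp5d, -0.25 at Ndufa5, -0.33 at Ndufab1, -0.34 at Ndufa11, -0.37 at Ndufb2, -0.41 at Atp5g2, -0.49 at Ndufa8, -0.75 at Ndufaf8, -1.33 at Uqcr10, -1.38 at Ndufv3, -1.57 at Ndufaf4, -1.61 at Uqcrh and -2.22 at Ndufaf3, all regions with signal in both controls. Ndufaf3 was also at -0.19 with IgG 4 times shallower. The mean Pou4f1 signal of the 36 regions, 1.10 times that of regions at coding starts by the medians, became 0.985 when multiplied by length and 1.20 in regions with 1 coding gene. The share with a POU motif was 0 in all windows. No paired analysis was possible because the control columns carry no replicate number. Depth is not known, and single steps of signal decide many control values.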

Other observations

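Pyruvate dehydrogenase and the citric acid cycle, which supply the chain with electrons, were counted as a single list. The pyruvate dehydrogenase genes in it were Pdha1, Pdhb, Dlat, Pdhx and Dld. A region lay at 13 of the 17 genes of the list (76.5%, 95% exact interval 50.1 to 93.2%, against 24.9% of all coding genes), with 14 regions because Sucla2 had 2. Of these regions, 7 were higher in Pou4f1 than in IgG by limma, 0 were lower, and the median log2 difference was 5.40. Of all regions, 64.8% were higher in Pou4f1, with a median of 5.22. Fumarase (Fh1) had a signal of 364 and 262 against 0 and 7.29 (adjusted p = 0.0254), and Mdh2, the mitochondrial malate dehydrogenase, had 357 and 334 against 0 and 48.1 (adjusted p = 0.0933).

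Of 18 regulators of mitochondrial biogenesis, 12 had a region (66.7%, 95% exact interval 41.0 to 86.7%, against 24.9% of all coding genes), and 11 of these 12 regions were higher in Pou4f1, against 64.8% of all regions. Nrf1 had a signal of 219 and 64.5 with both controls at 0 (adjusted p = 0.00845), Yy1 had 155 and 154 against 0 and 7.03 (adjusted p = 0.0326), and Tfam, which packages mitochondrial DNA, had 178 and 123 against 11.0 and 6.44 (adjusted p = 0.0109). Esrra, which encodes ERR alpha, was the region that did not pass, with 228 and 171 against 14.6 and 0 (adjusted p = 0.0528). The region of Gabpa is the one counted at Atp5j. Ppargc1a and Ppargc1b, the coactivators of this programme, had no region at a start. The genes given with values here were chosen after their values were seen.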
